A study of Mus musculus with 8 samples.

Results

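The genes described here are 39 components of the bone morphogenetic protein (BMP), TGF-beta and activin pathway, chosen by gene symbol out of 48709 genes counted in the P1 mouse cortex. They comprise 11 ligands, 2 factors that process ligands, 10 receptors, 8 SMADs, 4 secreted antagonists and the 4 *Id* genes. All 39 were found in the count tables by their Ensembl identifiers, and all 39 had enough counts to be tested. RNA was extracted with TRIZOL from whole postnatal cortex of 4 control and 4 dcKO_Nex-Cre samples, and 1 library per sample was sequenced. The dcKO_Nex-Cre cortex carried floxed BAF155 and BAF170 together with Nex-Cre, a driver placed at the *Neurod6* gene and active in postmitotic excitatory neurons. BAF155 and BAF170 are scaffold proteins of BAF, a complex that remodels chromatin. Control animals were heterozygous for both floxed genes (BAF155 fl/+, BAF170 fl/+) and Cre negative, and all animals were on a C57BL6/J background. The sample labels give only control or mutant and the age, so that the Cre line was taken from the study's methods. Cre was present in only 1 group, and its presence cannot be told apart from the deletion. Glia, interneurons, vascular cells and meninges largely have no Nex-Cre history and kept both genes, so the tissue is a mixture of recombined and unrecombined cells. In such bulk RNA, fewer cells of a type and less RNA per cell cannot be told apart.

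Ligands of this family assemble type I and type II receptor kinases into a complex. BMP receptors phosphorylate SMAD1, SMAD5 and SMAD9, whereas TGF-beta and activin receptors phosphorylate SMAD2 and SMAD3, and both sets of SMADs join SMAD4 and enter the nucleus. SMAD6 and SMAD7 inhibit signaling inside the cell, and Noggin, Chordin, Gremlin and Follistatin bind ligands outside it. The *Id* genes are classical BMP targets whose products hold back basic helix-loop-helix factors, and in the developing forebrain the pathway is known for patterning the dorsal midline and for guiding the choice between neuronal and glial fates.

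Promoter sequences are shown for *Grem1* and *Id2*, which passed the test described below, and for *Id3* and *Id4*, which belong to the *Id* family and did not. Each line gives the 250 bases before the RefSeq start of the gene on GRCm38.p6, read 5′ to 3′ on the strand of the gene. The windows are chr2:113758649-113758898 on the minus strand for *Grem1*, chr12:25096093-25096342 on the minus strand for *Id2*, chr4:136143572-136143821 on the plus strand for *Id3* and chr13:48260866-48261115 on the plus strand for *Id4*. Capitals mark GGCGCC, a GC-rich motif known from BMP-responsive elements, and CAGAC or its reverse complement GTCTG, the core of the SMAD-binding element.
Grem1: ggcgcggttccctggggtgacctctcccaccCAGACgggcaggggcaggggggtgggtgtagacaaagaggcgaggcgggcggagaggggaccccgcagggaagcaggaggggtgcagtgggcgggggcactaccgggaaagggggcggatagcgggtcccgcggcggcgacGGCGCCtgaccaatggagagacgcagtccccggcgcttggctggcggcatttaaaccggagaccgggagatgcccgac
Id2: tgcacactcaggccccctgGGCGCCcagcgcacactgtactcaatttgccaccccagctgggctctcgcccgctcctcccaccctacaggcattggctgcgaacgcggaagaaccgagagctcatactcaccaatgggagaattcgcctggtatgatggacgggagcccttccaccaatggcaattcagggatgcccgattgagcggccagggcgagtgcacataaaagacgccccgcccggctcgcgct
Id3: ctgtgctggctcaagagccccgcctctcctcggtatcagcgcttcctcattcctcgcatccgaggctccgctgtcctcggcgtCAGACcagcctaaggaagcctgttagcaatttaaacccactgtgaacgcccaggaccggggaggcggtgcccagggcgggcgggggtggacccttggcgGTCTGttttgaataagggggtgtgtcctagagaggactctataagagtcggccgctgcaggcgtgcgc
Id4: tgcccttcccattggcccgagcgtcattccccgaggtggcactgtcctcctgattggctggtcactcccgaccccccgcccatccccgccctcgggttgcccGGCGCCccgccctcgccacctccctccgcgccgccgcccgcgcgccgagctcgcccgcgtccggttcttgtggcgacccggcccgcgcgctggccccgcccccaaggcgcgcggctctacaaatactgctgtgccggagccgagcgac

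Both strands were searched for these letters. The *Grem1* window holds GGCGCC 78 bases and CAGAC 219 bases before the start. In *Id2* GGCGCC lies 231 bases before the start, in *Id4* 148 bases before it, and in *Id3* the CAGAC or GTCTG matches lie 167 and 68 bases before it. None of these matches overlaps another. GGCGCC was found in 9.6% and CAGAC or GTCTG in 42.2% of 32851 RefSeq promoter windows of this length. Of the members, 27 matched the promoter table, and 9 of these held GGCGCC while 12 held CAGAC or GTCTG. *Bmp3*, *Tgfb3* and *Id1* were among the members without a match there. A member gene was counted if any of its windows held the motif, whereas the shares above are of single windows. The counts and the shares are therefore in unlike units and cannot be compared. The 4 windows shown are rich in G and C, with 72% in *Grem1*, 62.8% in *Id2*, 62.8% in *Id3* and 75.6% in *Id4*, compared with 53.2% over all windows. A match is a description of the letters only. The windows of *Id2* and *Id3* lie inside the longer gene extents of the GENCODE annotation.

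The counts per library ranged from 17958641 to 35191912, and 23596 to 24221 genes were detected in each. The members took 0.17% to 0.194% of the counts, which corresponds to 30480 to 64415 counts per library. The mitochondrial share was 2.33% to 4.24% in 6 libraries, 6.87% in control replicate 2 and 6.15% in dcKO_Nex-Cre replicate 4, and those 2 libraries were also the shallowest of their groups. All controls and dcKO_Nex-Cre replicates 1 and 2 have lane tag 2, while dcKO_Nex-Cre replicates 3 and 4 have lane tag 8. Because no control has lane tag 8, lane and genotype cannot be told apart in those 2 libraries. Markers of cortical excitatory neurons were detected in all libraries, and their summed level was 1052 to 1145 CPM in the control and 982 to 1166 CPM in the dcKO_Nex-Cre cortex. Markers of the choroid plexus varied most among the cell types looked at, with a sum of 23.6 to 1351 CPM in the control and 4.49 to 561 CPM in the dcKO_Nex-Cre cortex. The deleted genes were lower in each dcKO_Nex-Cre library than in any control: *Smarcc2*, which encodes BAF170, fell by 0.81 on the log2 scale (edgeR adjusted p = 0.00267) and *Smarcc1*, which encodes BAF155, fell by 0.53 (edgeR adjusted p = 0.0348).

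The comparison of the groups asks which components of the pathway changed when the BAF complex was lost from postmitotic neurons. Levels are given in CPM, which are counts scaled to a common library size after TMM normalization by edgeR, and the quasi-likelihood test of edgeR was applied to 16287 genes. *Grem1*, a secreted BMP antagonist, rose in the dcKO_Nex-Cre cortex, while *Bmp3*, an atypical BMP ligand that opposes other BMPs, and the BMP target *Id2* fell. Thus, 1 of 39 members was higher at an adjusted p under 0.05, compared with 0.375% of all genes tested, and 2 of 39 were lower, compared with 0.51%. P-values measure the spread between these libraries, since the labels do not say whether the samples came from separate animals. At an unadjusted p under 0.05, 4 members were higher (*Grem1*, *Tgfb3*, *Bmp2* and *Smad5*) against 6.59% of all genes, and 4 were lower (*Bmp3*, *Id2*, *Id1* and *Fst*) against 7.05%. The libraries of the 2 groups did not overlap in 4 members that were higher (*Grem1*, *Tgfb3*, *Bmp2* and *Smad5*), where 3.99% of all genes behaved so, and in 2 members that were lower (*Bmp3* and *Id2*), where 4.01% did.

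**Figure D1:**
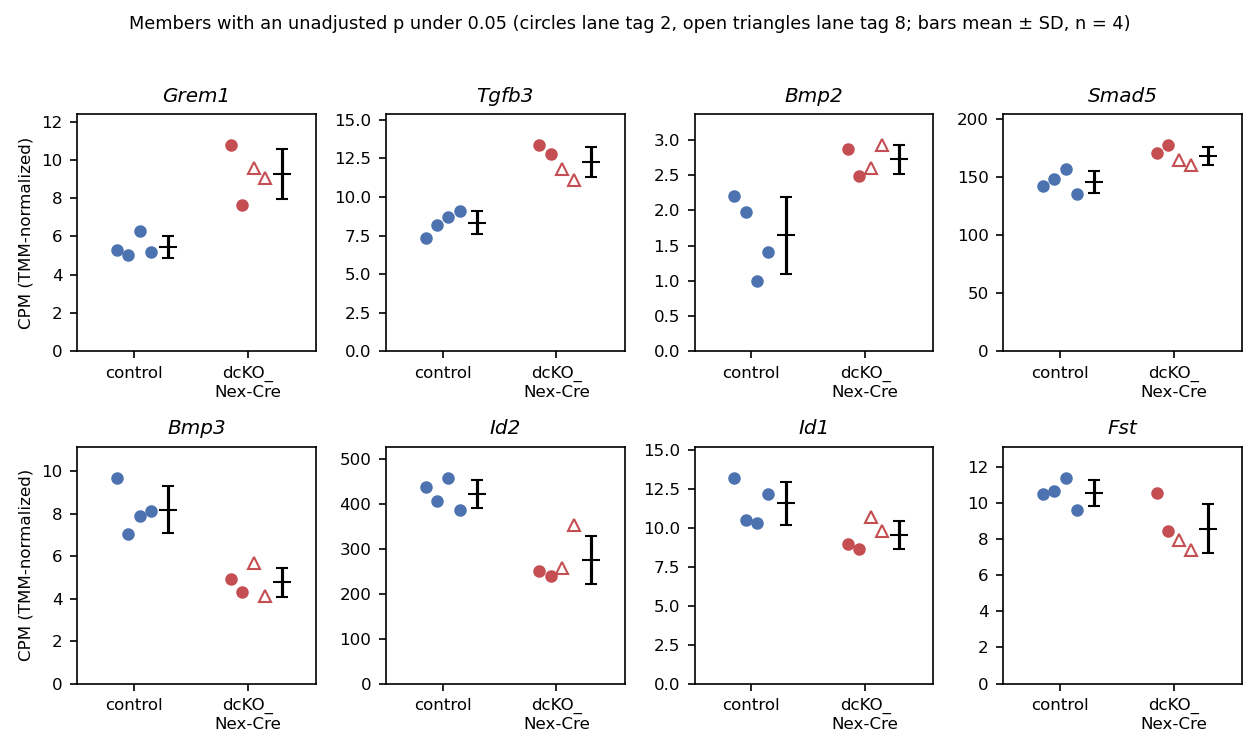
CPM (TMM-normalized, linear axes from 0) of the 8 members with an unadjusted p under 0.05, 1 point per library, with the mean ± SD of each group (n = 4); circles mark lane tag 2 and open triangles lane tag 8. The groups do not overlap in *Grem1*, *Tgfb3*, *Bmp2*, *Smad5*, *Bmp3* and *Id2*, and overlap in *Id1* and *Fst*.

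Among the BMP ligands, *Bmp3* (ENSMUSG00000029335, chromosome 5 of GRCm38, 98854415 to 98884396) was measured at 9.71, 7.06, 7.89 and 8.15 CPM in control replicates 1 to 4 and at 4.93, 4.33, 5.69 and 4.15 CPM in dcKO_Nex-Cre replicates 1 to 4. Each dcKO_Nex-Cre library lay below the lowest control. The mean fell from 8.20 ± 1.11 to 4.78 ± 0.70 CPM (SD, n = 4 each), which left 58.2% of the control level and gave a log2 fold change of -0.78 (standard error 0.15, 95% interval -1.11 to -0.45, edgeR adjusted p = 0.0403). An exact two-sided permutation test of the CPM gave p = 0.0286, the smallest that 4 against 4 libraries allow. Groups that do not overlap always give this p, so here and below it adds nothing to the lack of overlap. *Bmp3* kept its sign in all 15 other fits, but its edgeR adjusted p was 0.0517 within lane tag 2 and lay between 0.0503 and 0.166 when any library other than dcKO_Nex-Cre replicate 4 was left out.

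*Bmp2*, a ligand that activates BMP receptors, was at 2.20, 1.97, 1.0 and 1.41 CPM in the control and at 2.87, 2.49, 2.60 and 2.92 CPM in the dcKO_Nex-Cre libraries. It did not overlap between the groups and its log2 fold change was 0.73 (standard error 0.24, 95% interval 0.21 to 1.25), but it did not pass the threshold (edgeR adjusted p = 0.209). It had a mean of 52.4 counts per library. *Bmp7* had the highest level per length of the BMP ligands, with control and dcKO_Nex-Cre means of 2.36 and 2.72 CPM per kb of exon. It was at 10.2, 7.72, 9.26 and 10.8 CPM in the control and 10.8, 15.3, 8.95 and 8.64 CPM in the dcKO_Nex-Cre libraries, and only dcKO_Nex-Cre replicate 2 stood above the control range. The log2 fold change of *Bmp7* was 0.20 (95% interval -0.20 to 0.61).

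The other 3 BMP ligands were rare and variable. *Bmp4*, known for dorsal midline and mesenchymal expression, ranged from 0.16 to 0.84 CPM in the control and from 0.39 to 0.92 CPM in the dcKO_Nex-Cre cortex, and *Bmp5* from 0.50 to 0.79 and from 0.51 to 1.11 CPM. *Bmp6* ranged from 1.0 to 3.08 CPM in the control and from 1.12 to 3.91 CPM in the dcKO_Nex-Cre cortex. *Bmp6* shares 224 exon bases with *Txndc5* on the opposite strand, which had 1325 counts on average against 53.9 for *Bmp6*, and since it is not known whether strand was used in counting, its level is uncertain. For *Bmp4*, *Bmp5*, *Bmp6* and *Bmp7* the highest dcKO_Nex-Cre value was that of replicate 2, the library in which the summed markers of meningeal and perivascular fibroblasts (168 CPM, compared with 53.7 to 80.1 CPM in replicates 1, 3 and 4) and of the choroid plexus (561 CPM, compared with 4.49 to 16.2 CPM) were highest as well. Within the dcKO_Nex-Cre group, replicate 2 was also highest in summed markers of the striatum, at 204 CPM compared with 36.7 to 58.8 CPM. The same held for endothelium (201 CPM, compared with 153 to 185 CPM) and for pericytes and smooth muscle (202 CPM, compared with 175 to 190 CPM). All 10 fibroblast markers and 7 choroid plexus markers had counts in some library. The part of any of these cell types in the levels of these ligands was not tested.

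Of the ligands that signal through SMAD2 and SMAD3, *Tgfb3* (ENSMUSG00000021253, chromosome 12, 86056745 to 86079041) showed the largest difference. It was at 7.33, 8.21, 8.72 and 9.07 CPM in the control libraries and at 13.3, 12.8, 11.8 and 11.1 CPM in the dcKO_Nex-Cre libraries. Every dcKO_Nex-Cre library exceeded every control. The mean was 8.33 ± 0.76 CPM in the control and 12.3 ± 0.99 CPM in the dcKO_Nex-Cre cortex (SD, n = 4 each), and the log2 fold change of 0.56 (standard error 0.11, 95% interval 0.31 to 0.81) missed the threshold narrowly (edgeR adjusted p = 0.0502, exact two-sided permutation p = 0.0286). By the Wald test of DESeq2, in which 1.31% of 15991 genes were higher and 1.66% lower, the adjusted p of *Tgfb3* was 0.00128. *Grem1*, *Bmp3* and *Id2* passed this test as well, which makes 2 of 39 members higher and 2 lower. When any library other than dcKO_Nex-Cre replicate 4 was left out, the edgeR adjusted p of *Tgfb3* lay between 0.0927 and 0.191. It was 0.0463 within lane tag 2 and 0.174 with the replicate number as a block.

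*Gdf11*, a ligand that limits neurogenesis in several tissues, had the highest control mean of this class per length, 5.23 CPM per kb compared with 4.96 for *Tgfb2*, but the libraries of both genes overlapped, and in the dcKO_Nex-Cre cortex the means were 5.19 and 5.72 CPM per kb. It was at 19.1, 21.7, 21.1 and 23.04 CPM in the control and at 22.9, 24.3, 19.97 and 17.2 CPM in the dcKO_Nex-Cre libraries. The log2 fold change was -0.01 with a 95% interval of -0.26 to 0.25, and its sign changed with the processing. *Tgfb1*, *Tgfb2* and *Inhbb*, the last of which encodes the beta B subunit of activins and inhibins, had log2 fold changes of 0.05, 0.20 and 0.20 and unadjusted p-values of 0.818, 0.330 and 0.215 from edgeR. *Ltbp1*, which holds latent TGF-beta in the matrix, ranged from 5.86 to 8.97 CPM in the control and from 6.85 to 10.98 CPM in the dcKO_Nex-Cre cortex (log2 fold change 0.37, 95% interval -0.01 to 0.76, edgeR adjusted p = 0.377). *Bmp1*, a protease that cleaves procollagens and Chordin rather than a BMP ligand, was at 62.8, 62.9, 65.3 and 64.6 CPM in the control and 63.9, 65.9, 63.5 and 70.2 CPM in the dcKO_Nex-Cre libraries, with a 95% interval of the log2 fold change of -0.10 to 0.19.

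**Figure D2:**
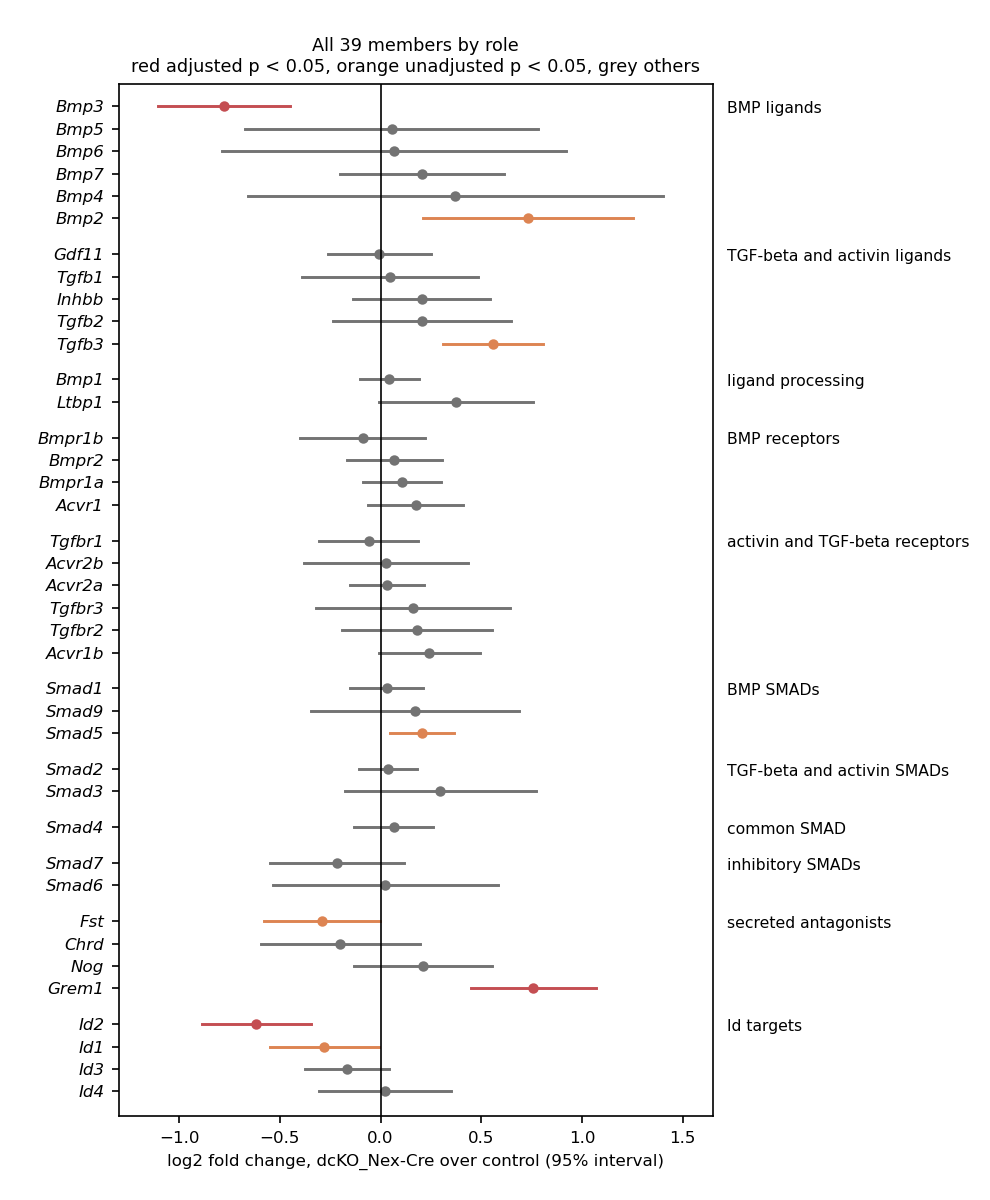
Log2 fold change (dcKO_Nex-Cre over control) of the 39 members with its 95% interval, grouped by role; red marks an adjusted p under 0.05, orange an unadjusted p under 0.05 and grey the others. Points to the right of 0 are higher in the dcKO_Nex-Cre cortex, which holds for 29 of 39 members, compared with 50.9% of all genes. None of the 10 receptors is colored, where 13.6% of all genes had an unadjusted p under 0.05.

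None of the 10 receptors passed the unadjusted threshold, which 13.6% of all genes passed, so that few were to be anticipated among 10. Their log2 fold changes ranged from -0.09 for *Bmpr1b* to 0.24 for *Acvr1b*. In 8 of 10 the 95% interval lay within 0.5 of 0 on the log2 scale, and *Tgfbr2* and *Tgfbr3* had wider intervals, -0.19 to 0.55 and -0.32 to 0.64. The BMP type I receptor *Bmpr1a* was the most abundant BMP receptor per length, at 101, 81.0, 107 and 99.9 CPM in the control and 98.8, 109, 107 and 104 CPM in the dcKO_Nex-Cre libraries. Its groups overlapped and its log2 fold change was 0.10 (95% interval -0.09 to 0.30). The activin type I receptor *Acvr1b* had the highest mean per length of all receptors, with control and dcKO_Nex-Cre means of 28.8 and 34.03 CPM per kb. It was at 131, 112, 133 and 133 CPM in the control and at 179, 143, 159 and 121 CPM in the dcKO_Nex-Cre libraries, so that 3 of 4 dcKO_Nex-Cre libraries exceeded all controls and replicate 4 did not. Over all libraries its log2 fold change was 0.24 (95% interval -0.01 to 0.49, edgeR adjusted p = 0.381), and without dcKO_Nex-Cre replicate 4 it was 0.34 (edgeR adjusted p = 0.0425).

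The type II receptors *Acvr2a*, *Acvr2b* and *Bmpr2*, which activate the type I receptors, had log2 fold changes of 0.03, 0.03 and 0.07, and the TGF-beta receptor *Tgfbr1* had -0.06. *Acvr2a* overlaps *Orc4* on the opposite strand over 446 exon bases, with 3898.9 counts on average for *Acvr2a* and 1848.5 for *Orc4*, and its level is therefore less certain. *Acvr1*, a BMP type I receptor, was at 44.3, 44.2, 46.1 and 44.4 CPM in the control and at 57.2, 57.8, 45.4 and 41.6 CPM in the dcKO_Nex-Cre libraries. Both dcKO_Nex-Cre libraries with lane tag 2 were above all controls, and the 2 with lane tag 8 were not.

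Of the 8 SMADs, 7 had a positive log2 fold change and 1 passed the unadjusted threshold, compared with 50.9% and 13.6% of all genes. *Smad5*, which carries BMP signals, was at 143, 148, 157 and 136 CPM in the control and at 171, 178, 165 and 161 CPM in the dcKO_Nex-Cre libraries. The groups did not overlap, but the difference was small, at 0.21 on the log2 scale (standard error 0.07, 95% interval 0.05 to 0.36, edgeR adjusted p = 0.249, exact two-sided permutation p = 0.0286). *Smad1* and *Smad9*, the other BMP SMADs, had log2 fold changes of 0.03 and 0.17. *Smad2* varied little, with 63.2, 64.4, 67.4 and 62.7 CPM in the control and 64.3, 67.5, 68.0 and 64.7 CPM in the dcKO_Nex-Cre libraries (log2 fold change 0.04, 95% interval -0.11 to 0.18). *Smad4*, the shared partner, was at 91.0, 103, 98.5 and 84.5 CPM in the control and 106, 105, 97.8 and 85.9 CPM in the dcKO_Nex-Cre libraries (log2 fold change 0.07, 95% interval -0.13 to 0.26).

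*Smad3*, which carries TGF-beta and activin signals, differed between the lane tags within the dcKO_Nex-Cre group. It was at 22.2, 22.4, 26.3 and 21.1 CPM in the control, at 39.2 and 33.6 CPM in dcKO_Nex-Cre replicates 1 and 2, and at 22.5 and 17.01 CPM in replicates 3 and 4. The first 2 stood above all controls, whereas replicate 3 lay within the control range and replicate 4 below it. The log2 fold change was 0.30 over all libraries (95% interval -0.18 to 0.77, edgeR adjusted p = 0.553) and 0.67 within lane tag 2 (edgeR adjusted p = 0.0291). The inhibitory *Smad7* was at 8.15, 10.1, 7.84 and 9.74 CPM in the control and at 7.59, 9.66, 6.56 and 6.96 CPM in the dcKO_Nex-Cre libraries, with overlapping groups and a log2 fold change of -0.22 (95% interval -0.55 to 0.12). *Smad6* was near the lower limit of what these libraries measure, with a mean of 23.1 counts and a log2 fold change of 0.02 (95% interval -0.53 to 0.58).

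*Grem1* (ENSMUSG00000074934, chromosome 2, 113746164 to 113758646) was at 5.31, 5.04, 6.30 and 5.20 CPM in the control and at 10.8, 7.63, 9.57 and 9.04 CPM in the dcKO_Nex-Cre libraries. The lowest dcKO_Nex-Cre library exceeded the highest control. The mean rose from 5.46 ± 0.57 to 9.25 ± 1.30 CPM (SD, n = 4 each), to 169% of the control level, or 0.76 on the log2 scale (standard error 0.14, 95% interval 0.45 to 1.07, edgeR adjusted p = 0.0348). The exact two-sided permutation p was 0.0286. The log2 fold change lay between 0.68 and 0.85 when any library was left out, and the edgeR adjusted p stayed under the threshold only without dcKO_Nex-Cre replicate 2 (0.0458) or replicate 4 (0.0171). It was 0.0625 within lane tag 2, where *Grem1* differed by 0.75 on the log2 scale.

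The other 3 secreted antagonists did not pass the adjusted threshold. *Fst*, whose product binds activin, was at 10.5, 10.7, 11.4 and 9.60 CPM in the control and at 10.5, 8.43, 7.92 and 7.41 CPM in the dcKO_Nex-Cre libraries. Replicate 1 of the dcKO_Nex-Cre cortex lay within the control range and the other 3 below it, and the log2 fold change of -0.29 (95% interval -0.58 to -0.0034) had an edgeR adjusted p of 0.360. *Chrd*, which encodes the BMP antagonist Chordin and had the highest control mean per length of the antagonists, was at 16.9, 22.1, 16.0 and 16.8 CPM in the control and at 13.1, 13.9, 13.3 and 22.5 CPM in the dcKO_Nex-Cre libraries. One library per group, control replicate 2 and dcKO_Nex-Cre replicate 4, stood far above the others, and these were the 2 libraries with the highest mitochondrial share. Per length, *Chrd* and *Nog* were at 2.87 and 2.58 CPM per kb in the control mean and at 2.51 and 2.98 CPM per kb in the dcKO_Nex-Cre mean, with overlapping libraries. The log2 fold change of *Chrd* was -0.20 (95% interval -0.60 to 0.20), and it shares 239 exon bases with *Thpo* on the opposite strand, which had 30.8 counts on average against 384.5 for *Chrd*. *Nog*, which encodes the BMP antagonist Noggin, ranged from 4.11 to 4.67 CPM in the control and from 3.82 to 5.86 CPM in the dcKO_Nex-Cre cortex (log2 fold change 0.21, 95% interval -0.13 to 0.55).

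*Id2* (ENSMUSG00000020644, chromosome 12, 25093799 to 25097140) was by far the most abundant member, at 173 CPM per kb of exon in the control. It was at 437, 407, 458 and 386 CPM in the control and at 249.9, 239, 258 and 353 CPM in the dcKO_Nex-Cre libraries. All dcKO_Nex-Cre libraries were below the lowest control, and replicate 4 was nearest to it. The mean fell from 422 ± 32.0 to 275 ± 52.3 CPM (SD, n = 4 each), which left 65.2% of the control level and gave a log2 fold change of -0.62 (standard error 0.12, 95% interval -0.89 to -0.35, edgeR adjusted p = 0.0457, exact two-sided permutation p = 0.0286). Within lane tag 2 the log2 fold change was -0.78 (edgeR adjusted p = 0.0156), and without dcKO_Nex-Cre replicate 4 it was -0.76 (edgeR adjusted p = 0.00129). When any other library was left out, the edgeR adjusted p lay between 0.0870 and 0.175.

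The other *Id* genes did not pass the adjusted threshold. *Id1* was at 13.2, 10.5, 10.3 and 12.2 CPM in the control and at 8.99, 8.66, 10.7 and 9.82 CPM in the dcKO_Nex-Cre libraries, so that the groups overlapped through dcKO_Nex-Cre replicate 3 (log2 fold change -0.28, 95% interval -0.55 to -0.01, edgeR adjusted p = 0.349, exact two-sided permutation p = 0.0857). *Id3* ranged from 28.7 to 37.4 CPM in the control and from 28.3 to 31.5 CPM in the dcKO_Nex-Cre cortex (log2 fold change -0.17, 95% interval -0.38 to 0.04). *Id4*, known for expression in neural progenitors and astrocytes, ranged from 42.4 to 45.8 CPM in the control and from 32.7 to 59.8 CPM in the dcKO_Nex-Cre cortex (log2 fold change 0.02, 95% interval -0.31 to 0.35). Summed per kb of exon, the 4 genes reached 222, 208, 225 and 199 CPM per kb in the control and 138, 137, 144 and 179 CPM per kb in the dcKO_Nex-Cre libraries. *Id2* made up 79.4% to 83.6% of this sum in the control and 71.7% to 80.9% in the dcKO_Nex-Cre cortex, so that the sum followed *Id2*.

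*Id2* is expressed by several cell types of the cortex, and the summed markers of the cell types given here overlapped between the groups. The counts of their markers past an unadjusted p under 0.05 stand beside 6.59% of all genes higher and 7.05% lower. Excitatory neurons are the cells in which Nex-Cre is active. Their summed markers were at 1052 to 1145 CPM in the control and 982 to 1166 CPM in the dcKO_Nex-Cre cortex, with 0 of 8 higher and 2 lower. Summed markers of radial glia and astrocytes were at 2592 to 3103 CPM in the control and 2307 to 2887 CPM in the dcKO_Nex-Cre cortex, and of the 10 markers 2 were higher and 2 lower at an unadjusted p under 0.05. Summed interneuron markers were at 771 to 904 CPM in the control and 673 to 807 CPM in the dcKO_Nex-Cre cortex, with 0 of 8 higher and 1 lower. Summed markers of oligodendrocyte precursors were at 187 to 277 CPM in the control and 271 to 339 CPM in the dcKO_Nex-Cre cortex. These sums overlapped only through dcKO_Nex-Cre replicate 4, at 271 CPM. Of the 6 precursor markers 4 were higher, 1 of them also at an edgeR adjusted p under 0.05, compared with 0.375% of all genes. Microglial markers summed to 120 to 140 CPM in the control and 124 to 167 CPM in the dcKO_Nex-Cre cortex. Of these 9 markers 3 were higher and 1 lower, and 1 was higher at an edgeR adjusted p under 0.05 too. None of these markers was at 0 in all libraries, and their part in the changes of *Id2*, *Bmp3* and *Grem1* was not tested.

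**Figure D3:**
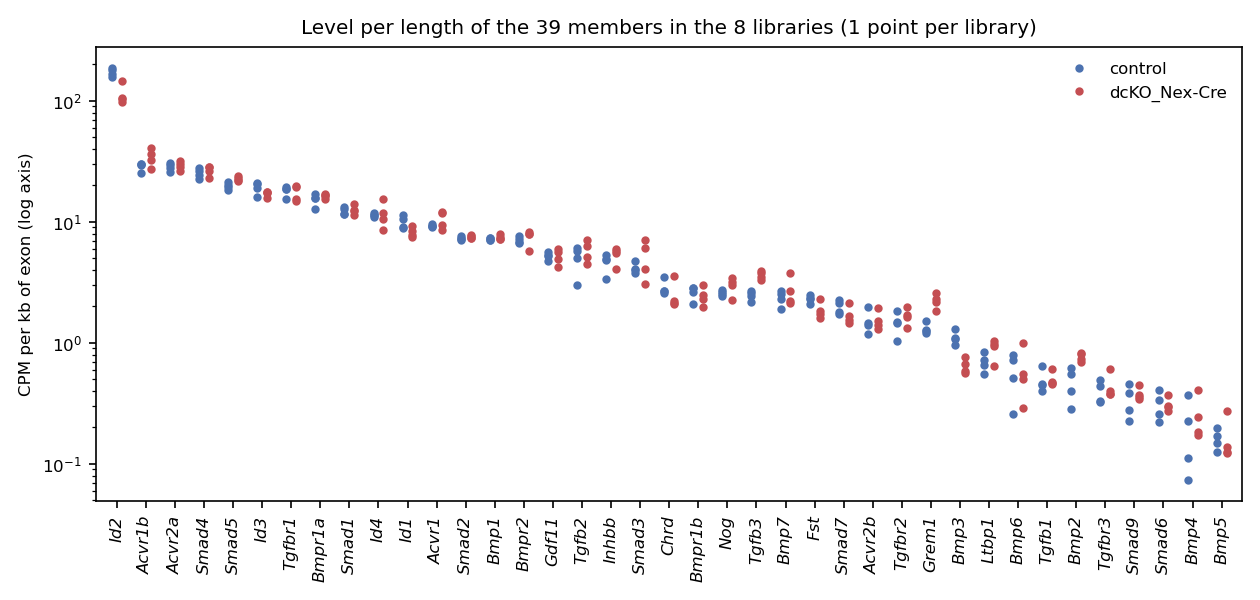
Level of each member per length (CPM per kb of exon, log axis) in each of the 8 libraries, ordered by the control mean; blue points are control and red points dcKO_Nex-Cre libraries. *Id2* stands above all others, with control and dcKO_Nex-Cre means of 173 and 113 CPM per kb, and *Bmp5* is lowest at 0.16 CPM per kb in the control.

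Per kb of exon, the members span a wide range in the control. After *Id2* came the receptors *Acvr1b* and *Acvr2a* with 28.8 and 28.4 CPM per kb, *Smad4* with 25.4, *Smad5* with 19.7, *Id3* with 19.1, *Tgfbr1* with 18.0 and *Bmpr1a* with 15.3 CPM per kb. The libraries of *Acvr1b* and *Acvr2a* overlapped in this level, at 25.3 to 30.1 and 25.6 to 30.7 CPM per kb, and so did those of *Smad5*, *Id3* and *Tgfbr1*, so that their order is not fixed. Ligands and antagonists lay lower, with *Gdf11* at 5.23, *Chrd* at 2.87, *Tgfb3* at 2.46, *Grem1* at 1.32 and *Bmp3* at 1.11 CPM per kb. Some receptors and SMADs lay in this range or below it. Among them were *Smad3* at 4.15, *Bmpr1b* at 2.60, *Smad7* at 1.98, *Tgfbr2* at 1.46, *Tgfbr3* at 0.40 and *Smad9* at 0.34 CPM per kb. *Smad6*, *Bmp4* and *Bmp5* were lowest at 0.31, 0.20 and 0.16 CPM per kb. In the dcKO_Nex-Cre cortex *Grem1* was at 2.23 and *Bmp3* at 0.65 CPM per kb.

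**Figure D4:**
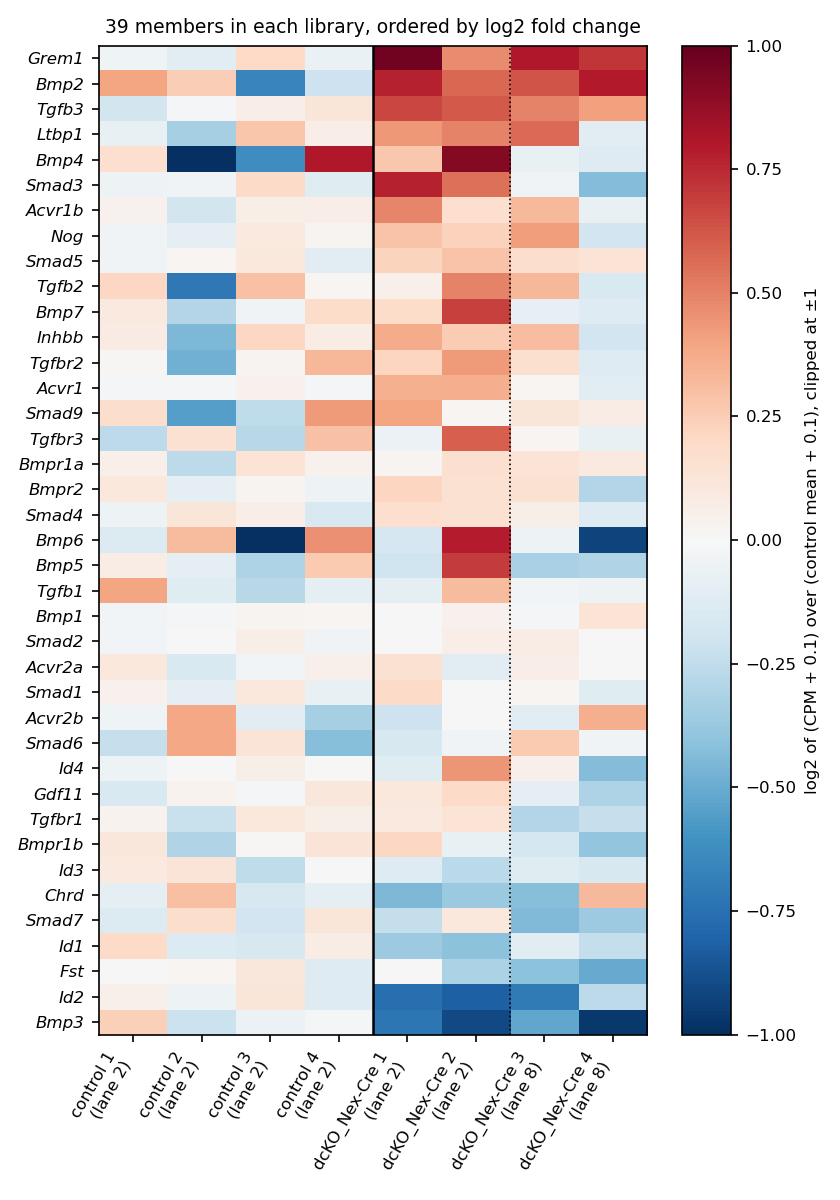
Log2 ratio of each library's CPM to the control mean (0.1 CPM added to both, colors clipped at ±1) for the 39 members, ordered by fold change; columns are the 8 libraries with their lane tags, the solid line separates the groups and the dotted line the lanes within the dcKO_Nex-Cre cortex. *Grem1*, *Bmp2* and *Tgfb3* at the top and *Id2* and *Bmp3* at the bottom hold 1 color across the dcKO_Nex-Cre libraries, whereas *Smad3* and *Acvr1* are clearly red there only in the 2 with lane tag 2.

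The members were examined together as well. The log2 fold change was positive in 29 of 39 members, compared with 50.9% of all genes tested, and its median was 0.07 compared with 0.00 for all genes. Depending on the fit, 24 to 30 members were positive. In 17 of 39 members the 95% interval lay within 0.5 of 0 on the log2 scale, compared with 9551 of 16287 genes. The libraries of a group were uneven in this respect. The dcKO_Nex-Cre replicate 4 had the lowest value of its group in 22 of 39 members and dcKO_Nex-Cre replicates 1 and 2 the highest in 12 and 15. In the control, replicate 2 had the lowest value in 18 of 39 members. Control replicate 2 and dcKO_Nex-Cre replicate 4 are the libraries with the highest mitochondrial share and the lowest depth, and the part of either in these values was not tested.

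Restricted to the 6 libraries with lane tag 2, *Tgfb3*, *Smad3* and *Acvr1* were higher and *Id2* was lower at an edgeR adjusted p under 0.05, which is 3 of 39 members higher compared with 0.834% of all genes and 1 of 39 lower compared with 0.643%. The edgeR adjusted p was 0.0463 for *Tgfb3* and 0.0477 for *Acvr1*. The median log2 fold change of the members was 0.18 in these libraries. Without dcKO_Nex-Cre replicate 4, *Grem1*, *Tgfb3* and *Acvr1b* were higher, 3 of 39 members compared with 3.98% of all genes, and *Bmp3* and *Id2* were lower, 2 of 39 compared with 3.74%.

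The rest of the pathway was looked at with 96 further genes, of which 78 were tested. None was higher at an edgeR adjusted p under 0.05, compared with 0.375% of all genes, and 2 were lower, compared with 0.51%. At an unadjusted p under 0.05 there were 5 of 78 higher (*Hfe2*, *Fstl1*, *Thbs1*, *Zfyve9* and *Tab1*), compared with 6.59% of all genes, and 9 of 78 lower, compared with 7.05%. The median log2 fold change of these 78 genes was 0.03, with 42 positive. *Klf10*, a transcription factor first described as an early TGF-beta-induced gene, was at 20.3, 19.4, 18.8 and 20.1 CPM in the control and at 13.9, 12.6, 13.9 and 11.2 CPM in the dcKO_Nex-Cre libraries. The groups were well apart, and the mean fell from 19.7 ± 0.72 to 12.9 ± 1.28 CPM (log2 fold change -0.60, standard error 0.10, edgeR adjusted p = 0.0196). *Mstn*, which encodes the activin-like ligand myostatin, fell from 2.01 ± 0.39 to 0.82 ± 0.08 CPM (SD, n = 4 each; log2 fold change -1.28, standard error 0.22, edgeR adjusted p = 0.0245).

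Among the other antagonists and modulators, 12 were tested, and at an unadjusted p under 0.05 *Fstl1* was higher, and *Dand5*, *Vwc2* and *Kcp* were among those that were lower. *Kcp* and *Dand5* had log2 fold changes of -0.69 and -0.57 with edgeR adjusted p-values of 0.113 and 0.119, and *Fstl1* one of 0.34 (edgeR adjusted p = 0.217). Of 15 genes of latency and activation, *Thbs1*, which activates latent TGF-beta, had the smallest p (log2 fold change 0.40, edgeR adjusted p = 0.204), and of 18 intracellular regulators *Zfyve9*, a SMAD anchor, had a log2 fold change of 0.27 (edgeR adjusted p = 0.246). All 18 intracellular regulators had a 95% interval within 0.5 of 0.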

How the data were processed

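RNA-seq of whole P1 cortex was analysed for 4 control and 4 dcKO_Nex-Cre samples. The deposited values of each sample are raw read counts of Ensembl genes, which the authors neither normalized nor filtered. The submitters' processing notes name mm10. The aligner, the counting program, the annotation and the use of strand are not given in the sources used here. Of 48709 genes, 48349 were matched by identifier to GENCODE M21 for symbols, positions and summed exon lengths. Samples of a group differed by more than counting noise (chi-square over its degrees of freedom 3.77 or more).

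The count tables were read into R 4.3.3 and tested with edgeR 4.0.16, using filterByExpr (16287 genes kept), TMM, and the robust quasi-likelihood test, two-sided, without covariates. Benjamini-Hochberg adjustment covered every tested gene, and the threshold was 0.05. Single genes were also compared by an exact permutation test over 70 regroupings, which gives its smallest p to every gene whose groups do not overlap. The methods were tested on simulated data. Alternatives comprised edgeR with DESeq2 size factors, DESeq2 1.42.0 (Wald test), limma-voom (limma 3.58.1), no filter, at least 10 counts in every library, the replicate number as a block, lane tag 2 only, and leaving out each library in turn. The names of the deposited files gave the lane tags. Promoter sequences are from RefSeq (GRCm38.p6).

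Members and gene lists were chosen with earlier results of these data known. Values in every library are given for members with an unadjusted p under 0.05, the 3 largest rises and 3 largest falls, and the member of highest level per length in each role; *Smad3* and *Acvr1* were added after their values were seen. From each other list, genes with an adjusted p under 0.05 and at most 3 more by smallest p were to be named; *Vwc2* lies outside this rule. A withheld item is not reported here. Counting depth limits rare members such as *Bmp4* (12.4 counts on average). Plots were drawn with Python 3.11.15, pandas 2.3.3 and matplotlib 3.10.9.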

Additional observations from a re-analysis of the deposited data

Results flagged for a closer look

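Of 38 groups of 4 libraries in which member values were examined, 4 held a library set far apart from the other 3, where chance flags about 1 in 20 groups. The *Id2* level of dcKO_Nex-Cre replicate 4 was 353 CPM, whereas replicates 1 to 3 lay between 239 and 258 CPM. The *Acvr1b* level of control replicate 2 was 112 CPM, and the remaining controls lay between 131 and 133 CPM. *Chrd* stood apart in both groups. Control replicate 2 reached 22.1 CPM while the remaining controls lay between 16.0 and 16.9 CPM, and dcKO_Nex-Cre replicate 4 reached 22.5 CPM while replicates 1 to 3 lay between 13.1 and 13.9 CPM.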

How the results depend on the processing

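*Grem1*, *Bmp3*, *Id2* and *Tgfb3* kept their direction in all 15 alternatives, but their calls depended on the libraries. Over all genes, 61 were higher and 83 lower, compared with 209 and 265 by DESeq2, 109 and 150 with no filter, 140 higher within lane tag 2, and 9 to 659 higher and 9 to 619 lower when 1 library was left out, the highest counts being those without dcKO_Nex-Cre replicate 4. Members higher at an adjusted p under 0.05 numbered 1, compared with 2 with DESeq2 size factors, DESeq2's test, limma-voom, no filter or at least 10 counts, each time *Grem1* and *Tgfb3*, with 3 within lane tag 2 and with 0 to 3 when 1 library was left out. Members lower numbered 2, compared with 1 within lane tag 2 and 0 to 2 when 1 library was left out. At an unadjusted p, 4 members were higher, compared with 9 within lane tag 2 and 3 to 11 when 1 library was left out, and 4 were lower, compared with 2 with no filter and 2 to 4 when 1 library was left out. Other pathway genes past that threshold numbered 4 to 9 higher and 4 to 11 lower when 1 library was left out. The share of all genes past an unadjusted p under 0.05 in these fits is not given here. These counts therefore cannot be read as a result about the pathway. The 11 members higher came from the fit without dcKO_Nex-Cre replicate 4, where calls over all genes rose as well. The sign of *Gdf11* (log2 fold change -0.01) changed to 0.0023 by DESeq2, 0.0046 with no filter, 0.15 within lane tag 2, and lay between -0.078 and 0.082 when 1 library was left out. The cause of these changes was not tested. Of 255 alternative values of the 17 members given in full, 215 kept their direction and side of the threshold, 25 lost and 8 gained a call, and 7 changed sign. The median over all genes of the shift in log2 fold change was 0.0012 with DESeq2 size factors in edgeR. It was 0.0071 with the DESeq2 Wald test, which differs in more than scaling.

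With the replicate number as a block, 21 genes were higher and 33 lower at an adjusted p under 0.05. At that threshold 0 members were higher and 0 lower (edgeR adjusted p 0.0865 for *Grem1*, 0.0952 for *Bmp3* and 0.0910 for *Id2*). At an unadjusted p under 0.05 there were 4 members higher and 2 lower. The share of all genes past the unadjusted threshold in this fit is not given here either. The deviations of libraries with the same number correlated by -0.14 to 0.13, so no pairing by number was seen. With 4 libraries per group, such correlations cannot exclude a pairing.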
